A study of Rattus norvegicus with 8 samples.

Results

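The neurotrophins, growth factors and Trk receptors described here are 8 genes of the rat hippocampus. They comprise the secreted factors Bdnf, Ntf3, Gdnf and Igf1, the secreted granin Vgf, and the receptors Ntrk2 (TrkB), Ntrk3 (TrkC) and Ngfr (p75). The genes were chosen by name, and every array probe whose RefSeq accession belongs to one of them was taken. They hold 13 of the 41012 probes of the array, on which 12206 genes could be named, and 12 of these 13 probes were bright enough to be tested.

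Neurotrophins are secreted as precursors, cleaved to mature factors and bound by Trk receptor tyrosine kinases, with BDNF acting through TrkB and NT-3 through TrkC, while p75 binds neurotrophins in general and, together with sortilin, their uncleaved precursors. Activated Trk receptors recruit adaptors that switch on the ERK, PI3K and phospholipase C pathways. In the hippocampus BDNF and TrkB are best known for synaptic plasticity, GDNF signals through Gfra1 and Ret, and IGF-1 through its own receptor kinase and binding proteins.

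Hippocampal RNA from 8 male Wistar rats was measured, 1 array per rat. The 4 control rats ate CE-2, a standard feed, and the 4 CCH rats ate CE-2 with 0.1% coral calcium hydride (CCH) powder. The animals entered the groups at 6 weeks of age and were killed at 8 weeks. No sample analysed here is labelled as fed plain coral calcium. The comparison asks which hippocampal transcripts differ with CCH in the feed.

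Each value below is the log2 of a probe's processed signal minus the 75th percentile of its array, so that 0 is the level of a probe brighter than 75% of spots. Levels of different probes are not comparable, because probes differ in labelling and binding. The share of spots well above background was 76.3% to 79.9%, and 0 spots were saturated. The number of arrays, 4 per diet, limits the precision. Control arrays filled slide 1 and CCH arrays slide 2, with separate scans, so that diet and slide cannot be told apart. CCH replicate 1 lay furthest from its group, with a median absolute distance of 0.31 log2 units from the mean of its group's other arrays against 0.13 to 0.17 for the other 7 arrays. The pyramidal marker Wfs1 and the granule cell marker Prox1 were detected on all 8 arrays. The dopamine receptors Drd1 and Drd2, listed as striatal markers, were detected too. Their means were -5.32 and -5.40 in controls and -5.69 and -5.37 in CCH, and whether striatal tissue was present was not tested. The free-text sample descriptions speak of a Parkinson model with saline or L-DOPA and contradict the titles and treatment labels, which gave the groups here.

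None of the 12 tested probes was called different between the diets by limma at an adjusted p under 0.05. Over the whole array 0.174% of probes were called, 55 of 31612 (24 higher and 31 lower in CCH). With another background correction (normexp) 246 probes of the array were called, 69 of them higher, and without CCH replicate 1 the count was 708. Without any other single array it was 0 or 1, and with the replicate number as a block it was 0 (4963 at an unadjusted p under 0.05). At an unadjusted limma p under 0.05, 2 of the 12 member probes passed, Ntf3 higher and 1 Igf1 probe lower, beside 15.4% of all tested probes (2779 higher and 2082 lower). In 1 of the 12, Ntf3, the 4 CCH arrays did not overlap the 4 control arrays, beside 11.3% of all tested probes. Both shares of the members are near the background. Of the 12 differences 6 lay above 0 and 6 below, with a median of 0.00 beside 0.03 over all tested probes.

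**Figure D1:**
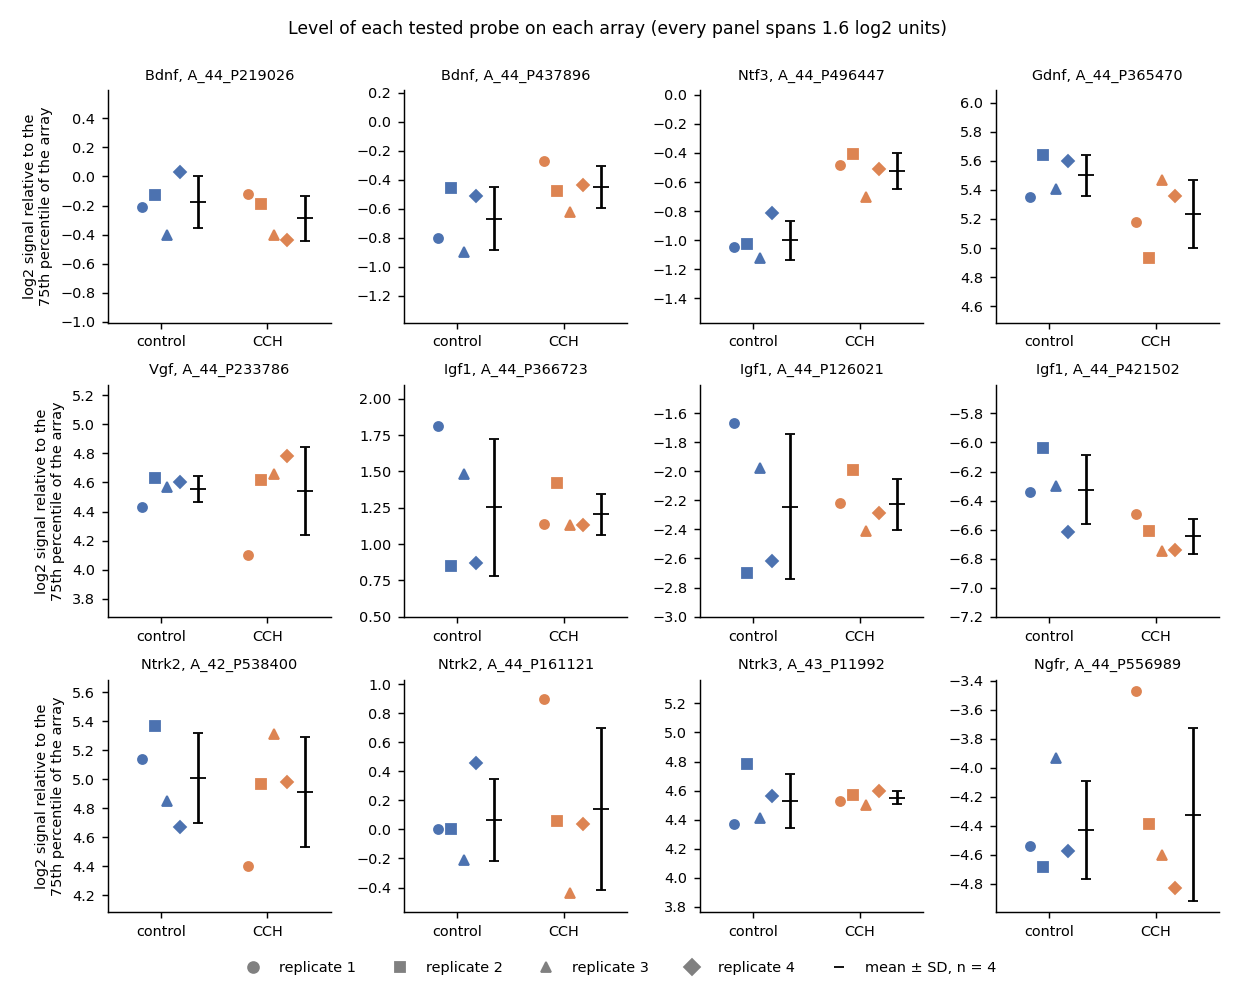
Level of the 12 tested probes on each array, as log2 signal relative to the 75th percentile of the array, with control in blue, CCH in orange, 1 symbol per replicate number and the mean ± SD of 4 arrays in black. Only the Ntf3 panel shows groups that do not overlap, and CCH replicate 1 is the extreme array of Ngfr at -3.47, of Vgf at 4.10 and of both Ntrk2 probes.

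Ntf3, which encodes the TrkC ligand NT-3, gave the largest difference among the members. Its probe A_44_P496447 read -1.05, -1.03, -1.12 and -0.81 in control replicates 1 to 4, and -0.48, -0.41, -0.70 and -0.51 in CCH replicates 1 to 4. Every CCH array was above every control array, and the gap between the highest control array and the lowest CCH array was smaller than the range within either group. The spread between arrays was 0.13 in controls and 0.12 in CCH (SD, n = 4 each). The difference was 0.48 ± 0.10 (SE, 1.39-fold, 95% interval 1.18 to 1.64), with an adjusted p of 0.0877 by limma, and it was not called. Over the 16 alternative settings the difference lay between 0.41 and 0.54 and the limma adjusted p between 0.0697 and 0.226, and without CCH replicate 1 it was 0.46.

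Scores of oligodendrocyte precursor and oligodendrocyte markers were also higher on the CCH arrays, although 0 of 6 and 0 of 17 probes were called by limma (4 and 9 at an unadjusted p under 0.05, all higher). A list's score is the mean over its genes of the log2 level minus that gene's mean over the 8 arrays. The lists were chosen with earlier results of these data known, so scores that separate the diets are a description and no test. The precursor list holds Bmp4, whose difference of 0.78 ± 0.14 (SE) was the largest of that list. The precursor score over 6 genes tested of 8 listed was -0.19 to -0.10 in controls and 0.02 to 0.22 in CCH, with 5 of 6 genes above 0, a median difference of 0.29, and a summed level (relative to the 75th percentile, as a linear ratio) of 30.2 to 32.2 in controls against 33.6 to 39.8 in CCH. The oligodendrocyte score over all 12 genes listed was -0.24 to -0.01 in controls and 0.01 to 0.31 in CCH, with 11 of 12 genes above 0, a median of 0.35, and a summed level of 269 to 325 against 289 to 386. Microglial markers had lower scores on the CCH arrays, at 0.04 to 0.21 in controls and -0.18 to -0.03 in CCH, with 12 of 16 genes below 0, a median of -0.21, and a summed level of 76.3 to 85.5 in controls against 64.1 to 82.4 in CCH. Of their 19 probes 1 was called by limma (adjusted p = 0.0398) and 4 had an unadjusted p under 0.05, all lower. Every tested marker of these 3 lists was well above background on all 8 arrays. They were the only marker lists whose scores did not overlap between the diets. The dentate granule neuron score was -0.16 to 0.11 in controls and -0.13 to 0.12 in CCH, and the CA pyramidal score -0.20 to 0.04 and 0.00 to 0.14. The interneuron score was 0.01 to 0.14 in controls and -0.18 to 0.08 in CCH, and the astrocyte score -0.14 to 0.10 and -0.06 to 0.15. The part of any of these lists in the Ntf3 difference was not tested. In whole tissue a change in the number of cells of a type and in RNA per cell cannot be told apart.

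The window upstream of Ntf3 is shown because this member gave the largest difference. It covers the 250 bases before the most upstream of the 3 RefSeq start sites, at chr4:160670624-160670873 on the minus strand of GRCr8, and holds no match to the cyclic AMP response element TGACGTCA, the motif marked in capitals in the Vgf window further on.
Ntf3: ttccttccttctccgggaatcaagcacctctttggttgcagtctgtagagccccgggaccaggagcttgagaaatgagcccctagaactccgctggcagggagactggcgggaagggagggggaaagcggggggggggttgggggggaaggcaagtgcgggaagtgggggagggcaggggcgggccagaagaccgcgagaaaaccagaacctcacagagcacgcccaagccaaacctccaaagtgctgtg

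Bdnf, the ligand of TrkB, had 2 probes of the same accession, and their differences pointed in opposite directions without either being called. The probe A_44_P219026, with 1 spot per array, read -0.21, -0.13, -0.40 and 0.03 in controls and -0.12, -0.19, -0.40 and -0.44 in CCH. Its difference was -0.11 ± 0.12 (SE, limma adjusted p = 0.723), and the groups overlapped. The probe A_44_P437896, with 10 spots per array, read -0.80, -0.46, -0.90 and -0.51 in controls and -0.27, -0.48, -0.62 and -0.44 in CCH.
On that probe control replicates 1 and 3 were the lowest arrays and CCH replicate 1 the highest, and the groups overlapped. The difference was 0.22 ± 0.13 (SE, limma adjusted p = 0.482), with a 95% interval from -0.08 to 0.52, and without CCH replicate 1 it was 0.16. Its replicate spots agreed closely, with a coefficient of variation of 3.29% to 7.32% within an array. The spread between arrays, 0.22 log2 units in controls and 0.14 in CCH (SD, n = 4 each), includes labelling and hybridisation as well as differences between rats, which cannot be told apart with 1 array per rat.

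The ratio of the Bdnf probes within an array is free of array scaling. It separated the diet groups, which also filled separate slides, so that diet and slide cannot be told apart here either. The log2 ratio of A_44_P437896 to A_44_P219026 was -0.59, -0.33, -0.51 and -0.54 in controls and -0.15, -0.29, -0.22 and 0.00 in CCH. All 4 CCH ratios lay above all 4 control ratios. The means were -0.49 ± 0.11 and -0.16 ± 0.13 (SD, n = 4 each), a difference of 0.33. The two-sided exact permutation p was 0.0286, the smallest that 4 arrays against 4 allow, and 0.114 after adjustment over the 4 probe pairs compared. The difference in ratio did not pass the adjustment. How often such ratios separate the groups over all genes of the array was not computed. Leaving out 1 array gave 0.27 to 0.38. Which transcript forms each probe binds was not analysed here.

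**Figure D2:**
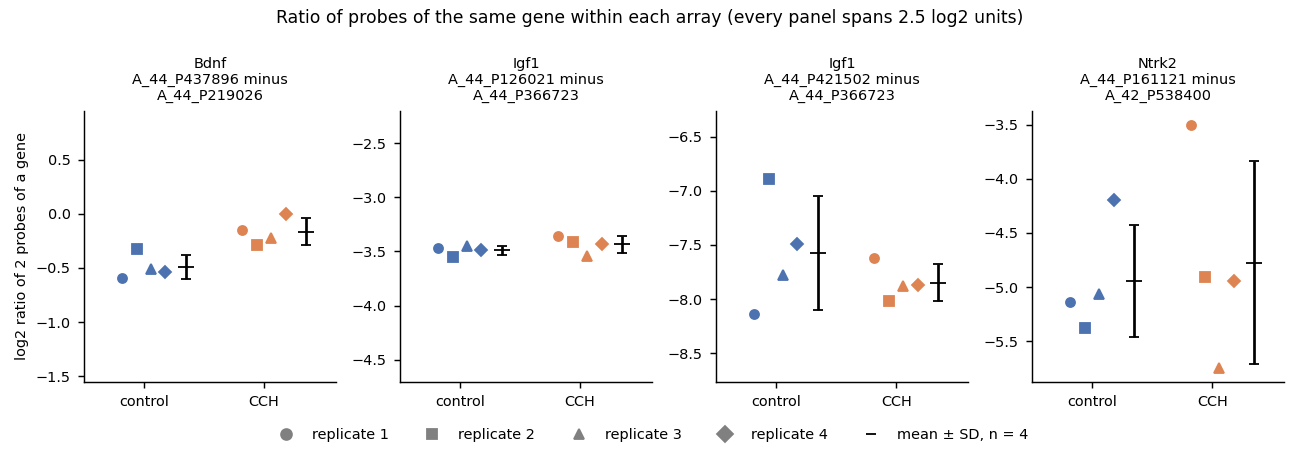
Log2 ratio of probes of the same gene within each array, for control (blue) and CCH (orange), with the mean ± SD of 4 arrays in black. The Bdnf ratio is higher on all CCH arrays, the ratio of the brighter Igf1 probes hardly varies, and the Ntrk2 ratio runs from -5.75 to -3.50 within the CCH group.

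For Gdnf, a survival factor of dopaminergic and motor neurons, probe A_44_P365470 read 5.35, 5.64, 5.41 and 5.60 in controls and 5.18, 4.93, 5.47 and 5.36 in CCH. CCH replicates 1 and 2 were the lowest arrays, and the groups overlapped. The difference was -0.27 ± 0.14 (SE, limma adjusted p = 0.400), with a 95% interval from -0.57 to 0.04, and without CCH replicate 2 it was -0.17. A second probe of the same accession, A_44_P500961, was not well above background on any of the 8 arrays in any of its 80 spots. It was not tested and gives no fold. Over the 8 arrays the unscaled signal was 22900 to 31900 on the first probe and 1.34 to 1.98 on this second one. Whether the bright signal of the first probe is that of Gdnf transcripts was not tested, so its difference need not be one of Gdnf. Of the other GDNF family ligands and receptors, 9 genes were tested and 0 of their 13 probes were called by limma, with 1 probe at an unadjusted p under 0.05. That gene was Artn, the ligand artemin, at 0.27 ± 0.08 (SE, adjusted p = 0.152), with no overlap of the groups. With normexp this probe was at 0.12, and the other Artn probe differed by 0.30 ± 0.22 (SE) with overlapping groups. Gfra1, the GDNF co-receptor, differed by -0.07 and 0.11 on its 2 probes, and the receptor kinase Ret by 0.07, -0.14 and 0.17 on its 3 probes.

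Igf1, which encodes insulin-like growth factor 1, varied more among control arrays than between diets. Probe A_44_P366723 read 1.81, 0.85, 1.48 and 0.87 in controls and 1.14, 1.42, 1.13 and 1.13 in CCH. Probe A_44_P126021, which carries another Igf1 accession, read -1.67, -2.70, -1.98 and -2.62 in controls and -2.22, -1.99, -2.41 and -2.29 in CCH. On both probes control replicates 1 and 3 were high, control replicates 2 and 4 were the lowest arrays of all, and CCH replicate 2 was the highest of its group. The differences were -0.05 ± 0.22 and 0.01 ± 0.23 (SE, limma adjusted p = 0.947 and 0.988). The ratio of these probes within an array stayed at -3.49 ± 0.04 in controls and -3.43 ± 0.07 in CCH (SD, n = 4 each), so that both varied together between arrays (difference 0.06, exact permutation p = 0.229, adjusted 0.457).

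On the control arrays the levels of Igf1 went with those of meningeal and fibroblast markers. The score of that list, over 11 genes tested of 12 listed, was 1.98, -1.57, 1.31 and -1.55 in controls and 0.22, 0.50, -0.09 and -0.79 in CCH. Its summed level ran from 9.52 to 109 in controls and from 15 to 40.4 in CCH, and all 11 genes were well above background on every array. The same control arrays were high for Igf2, the second IGF ligand, at 6.69, 3.03, 6.37 and 4.95 in controls and 4.58, 5.12, 5.80 and 3.62 in CCH. They were high for Igfbp2, an IGF-binding protein, at 3.83, -0.64, 3.01 and 1.62 in controls and 1.86, 1.42, 2.55 and -0.20 in CCH. Igf2 and Igfbp2 thus also spanned a wide range within a diet. Scores of other vascular and ventricular markers were also highest on control replicates 1 and 3. The choroid plexus score was 2.11, -0.62, 1.77 and 1.23 in controls and 1.15, -3.50, 1.51 and -3.65 in CCH. The endothelial and pericyte score, over 10 genes, was 0.50, -0.10, 0.28 and -0.83 in controls and 0.23, 0.17, -0.04 and -0.21 in CCH. On CCH replicate 2, where the choroid plexus score was near its lowest, Igf1 was the highest of its group. On CCH replicates 1, 3 and 4 Igf1 A_44_P366723 read 1.13 to 1.14, while the meningeal score ran from -0.79 to 0.22. The part of these 3 marker lists in the values of Igf1, Igf2 and Igfbp2 was not tested.

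**Figure D3:**
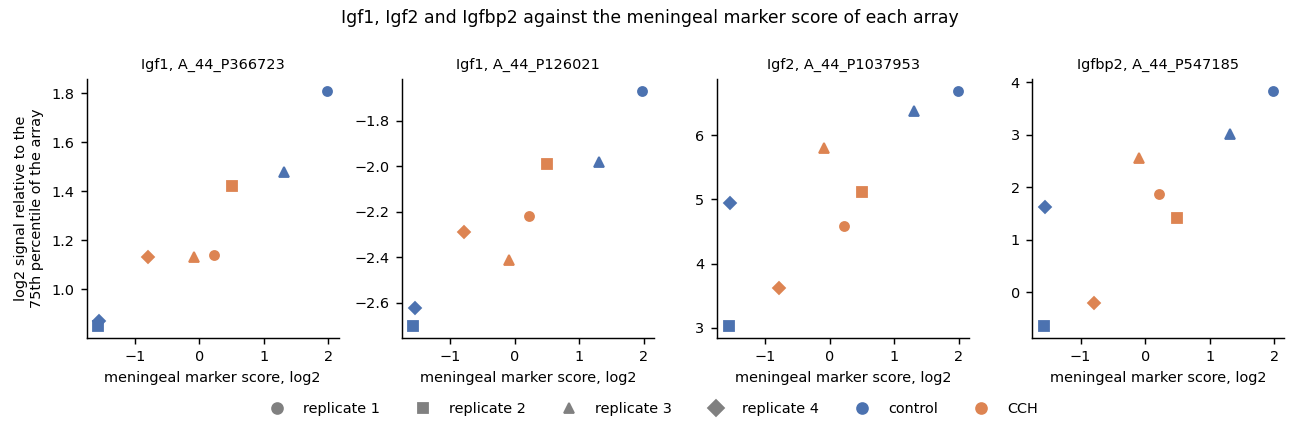
Level of Igf1 (both probes detected on every array), Igf2 and Igfbp2 against the meningeal marker score of each of the 8 arrays, in log2 units, with control in blue and CCH in orange. Control replicates 1 and 3, with scores of 1.98 and 1.31, hold the highest levels of Igf2 and Igfbp2, and control replicate 2, with a score of -1.57, the lowest level in all 4 panels.

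The remaining Igf1 probe, A_44_P421502, was near the limit of detection. It was well above background on all 4 control arrays and on 2 of the 4 CCH arrays, and its 10 spots varied by 17.2% to 38.4% within an array. It read -6.34, -6.04, -6.30 and -6.62 in controls and -6.49, -6.61, -6.75 and -6.74 in CCH, with overlapping groups. The difference was -0.32 ± 0.13 (SE, unadjusted p = 0.0409, limma adjusted p = 0.299). Its ratio to the brightest Igf1 probe did not separate the diets (difference -0.28, exact permutation p = 0.429, adjusted 0.571). Among the other IGF ligands, receptors and binding proteins 13 genes were tested, 6 above 0 and 7 below with a median of -0.07, and 0 of 17 probes were called by limma, with 1 at an unadjusted p under 0.05. The largest difference of that list was that of the binding protein Igfbp6, at -0.63 ± 0.42 (SE, adjusted p = 0.528), which was -0.36 without control replicate 1 and -0.39 without control replicate 3. The receptor Igf1r read -0.73, -0.78, -0.69 and -0.75 in controls and -0.11, -0.59, -0.65 and -0.67 in CCH. These groups did not overlap, CCH replicate 1 stood above the other CCH arrays, and the difference was 0.23 ± 0.13 (SE).

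Vgf, a granin whose peptides are stored in secretory granules and whose transcript neurotrophins induce, had a difference near 0. It read 4.43, 4.63, 4.57 and 4.60 in controls and 4.10, 4.62, 4.66 and 4.78 in CCH. CCH replicate 1 was the lowest of all arrays and CCH replicate 4 the highest. The difference was -0.02 ± 0.15 (SE, 95% interval -0.36 to 0.33, limma adjusted p = 0.973), and without CCH replicate 1 it was 0.13 (adjusted p = 0.386). Among the other granins and the enzymes of prohormone processing, 13 genes were tested with 0 of 21 probes called by limma, 1 higher and 2 lower at an unadjusted p under 0.05. Chga, which encodes chromogranin A, differed by 0.35 ± 0.13 (SE, adjusted p = 0.259) with no overlap of the groups, and by 0.41 ± 0.22 on its other probe, where CCH replicate 1 read 3.35 and the other CCH arrays 2.35 to 2.49. The prohormone convertase Pcsk1 differed by -0.08 and 0.19 on its 2 probes.

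The window upstream of Vgf is shown because it was the only one of the members' 12 windows with the cyclic AMP response element TGACGTCA, the site at which CREB is known to act on this gene. The motif is its own reverse complement, so both strands are covered, and 1.59% of all 33469 rat windows of 250 bases before a RefSeq start site hold it. Windows were found for Bdnf, Ntf3, Gdnf, Igf1 and Vgf. The Vgf window lies at chr12:25277021-25277270 on the minus strand of GRCr8, capitals mark the motif, and 82 bases separate its end from the start site.
Vgf: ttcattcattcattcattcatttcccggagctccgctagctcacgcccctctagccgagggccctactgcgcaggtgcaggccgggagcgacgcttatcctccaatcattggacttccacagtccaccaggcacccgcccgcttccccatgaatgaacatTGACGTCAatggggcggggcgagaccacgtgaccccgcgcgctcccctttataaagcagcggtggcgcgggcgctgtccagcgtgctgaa
A match describes the letters of the window and says nothing of binding in these rats.

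Ntrk2, the TrkB receptor of BDNF, was measured by 2 probes of the same accession that ordered the arrays differently. Probe A_42_P538400, with 10 spots per array, read 5.14, 5.37, 4.85 and 4.67 in controls and 4.40, 4.97, 5.31 and 4.98 in CCH. Probe A_44_P161121 read 0.00, 0.00, -0.21 and 0.46 in controls and 0.90, 0.06, -0.44 and 0.04 in CCH. CCH replicate 1 was the lowest array on the first and the highest on the second, and control replicate 4 came next on both. CCH replicate 3 was the lowest array on the second probe and the highest but 1 on the first. The differences between the diets were -0.10 ± 0.22 and 0.08 ± 0.27 (SE, limma adjusted p = 0.878 and 0.927), and both turned sign without CCH replicate 1, to 0.08 and -0.18.

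The log2 ratio of the Ntrk2 probes was -5.14, -5.38, -5.06 and -4.20 in controls and -3.50, -4.91, -5.75 and -4.94 in CCH. Its range within each diet was wider than the difference between the diets of 0.17 (exact permutation p = 0.743, adjusted 0.743), and without CCH replicate 1 the difference was -0.25. The 10 spots of A_42_P538400 varied by only 2.49% to 5.80% within an array, against a spread of its array means of 0.31 log2 units in controls and 0.38 in CCH (SD, n = 4 each).

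**Figure D4:**
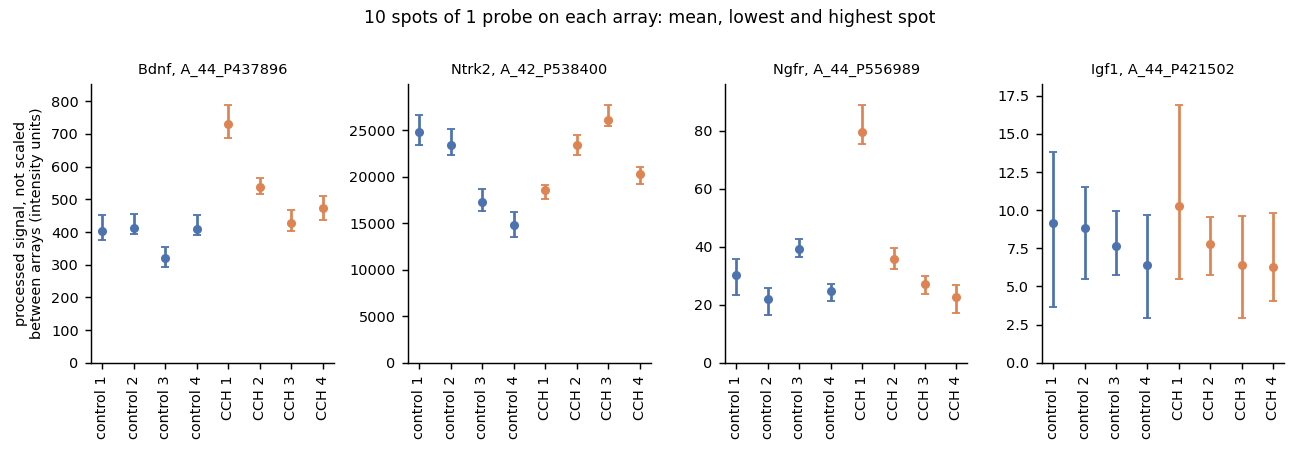
Processed signal of 4 probes that are printed 10 times on each array, with the mean of the spots as a point and the lowest and highest spot as bars, not scaled between arrays, on axes that start at 0. The spots of Bdnf and Ntrk2 lie close together within an array, although the bars of several arrays overlap, the Ngfr signal of CCH replicate 1 is 79.7 against 22.1 to 39.2 elsewhere, and the Igf1 bars overlap throughout.

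Ntrk3, the TrkC receptor of NT-3, read 4.37, 4.78, 4.41 and 4.56 in controls and 4.53, 4.57, 4.50 and 4.60 in CCH. All CCH arrays fell inside the control range. The difference was 0.02 ± 0.11 (SE, 95% interval -0.22 to 0.26, limma adjusted p = 0.951), so that a change beyond about 1.20-fold higher or 0.857-fold lies outside the interval.

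Ngfr, the p75 receptor, read -4.54, -4.68, -3.93 and -4.57 in controls and -3.47, -4.39, -4.60 and -4.83 in CCH. CCH replicate 1 was the highest array and CCH replicate 4 the lowest. On CCH replicate 1 the 10 spots ran from 75.4 to 88.9 signal units, above every spot kept on the other arrays, where the highest was 42.8. These units are not scaled between arrays, and CCH replicate 1 was the brightest array. Its 75th percentile was 882 units against 563 to 748 on the others. The difference was 0.11 ± 0.30 (SE, limma adjusted p = 0.901), it turned to -0.18 without CCH replicate 1, and with normexp it was -0.08. All 80 spots of this probe were well above background, and 2 carried an outlier mark and were left out. One of these, on control replicate 4, read 68.2 while its other 9 spots had a mean of 24.6.

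**Figure D5:**
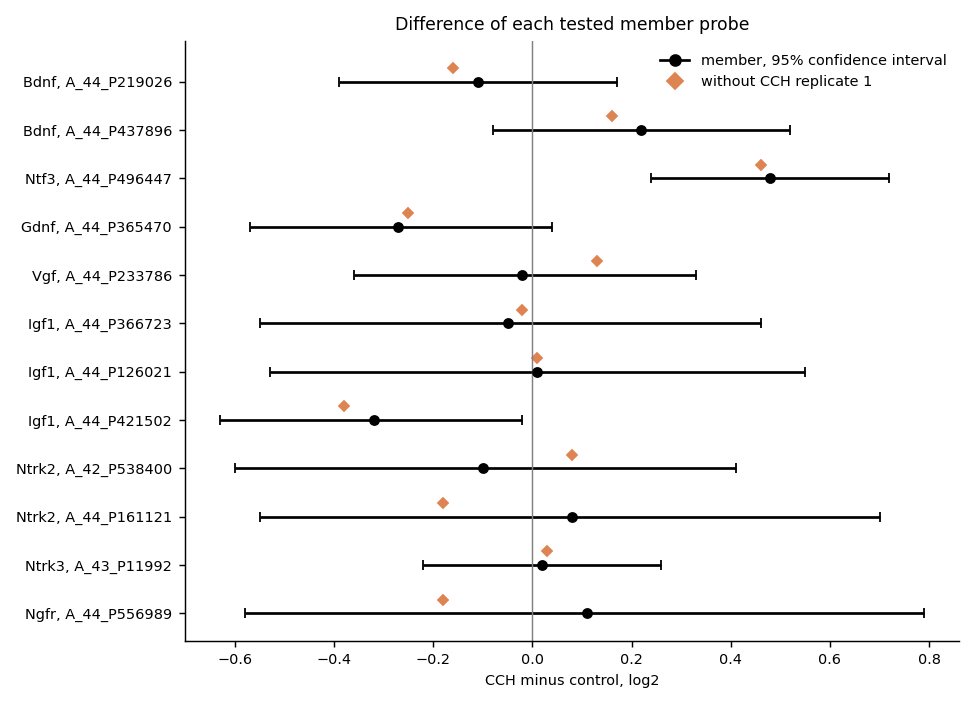
CCH minus control on the log2 scale for the 12 tested member probes (black), with 95% confidence intervals, and the same difference without CCH replicate 1 as an orange diamond. The interval of Ntf3 runs from 0.24 to 0.72, that of the dim Igf1 probe ends at -0.02, and those of the other 10 member probes include 0.

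Of the listed other neurotrophins, receptors and p75 partners 9 genes were tested, with 5 above 0 and 4 below and a median of 0.04, and 0 of 11 probes were called by limma, 0 higher and 2 lower at an unadjusted p under 0.05. Zdhhc17, a palmitoyltransferase, differed by -0.60 ± 0.11 (SE, adjusted p = 0.0634) with no overlap, but by 0.11 ± 0.12 on its other probe. Sorcs3, a sorting receptor of the sortilin family, differed by -0.46 ± 0.12 (SE, adjusted p = 0.121) with no overlap. Ntf4, which encodes NT-4, a second TrkB ligand, read -3.34, -5.13, -3.53 and -3.92 in controls and -4.15, -5.30, -3.67 and -5.76 in CCH. It was lowest on CCH replicates 2 and 4 and control replicate 2, the 3 arrays with the lowest choroid plexus scores (over 9 genes tested of 11 listed). The summed level of these markers was 35.3 to 254 in controls and 1.95 to 187 in CCH, 7 of the 9 were well above background on every array, and their part in the Ntf4 values was not tested.

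Downstream of the receptors, 32 genes of Trk adaptors and kinases were tested on 39 probes. They were balanced around 0, with 15 above and 17 below and a median of -0.04, and 0 probes were called by limma, 2 higher and 4 lower at an unadjusted p under 0.05. The adaptor Crkl differed by -0.26 ± 0.08 and the phosphatase Ptpn11 (SHP2) by -0.31 ± 0.12, with -0.45 ± 0.11 on its other probe. The kinase Akt2 differed by 0.32 ± 0.10 and the docking protein Gab1 by 0.26 ± 0.11 (SE in each case, limma adjusted p from 0.115 to 0.285 over these 5 probes). None of these passed the test.

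Among other growth factors and receptors 28 genes were tested on 35 probes, 9 above 0 and 19 below with a median of -0.05, and 0 were called by limma, with 1 higher and 3 lower at an unadjusted p under 0.05. These were the neuregulin receptor Erbb3 at 0.34 ± 0.14, which was -0.03 with normexp, and Fgfr2 at -0.24 ± 0.09, Fgf22 at -0.22 ± 0.09 and Hgf at -0.39 ± 0.16 (SE). The other 3 Fgfr2 probes differed by 0.02, -0.02 and 0.12, and the Hgf probe was well above background on 4 control arrays but on 1 CCH array. Over all 6 lists, 0 of 136 probes were called by limma, and 17 (12.5%) had an unadjusted p under 0.05, 5 higher and 12 lower, beside the 15.4% of all tested probes.

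The genes whose variation between arrays was most like that of a member were found by Pearson's r over the 8 arrays after removal of each diet's mean, among 9275 named genes detected on every array. The search takes the highest of many values, and the arrays share slide and scaling, so the r are descriptions. Igf1 was followed most closely by Mustn1 (r = 0.994) and S100a6 (0.993), and Ngfr by C3h11orf91 (0.993) and Nradd (0.988), a homologue of the p75 receptor. Without the 2 arrays farthest from the median of Ngfr, CCH replicate 1 and control replicate 3, Nradd had an r of 0.92. Vgf was followed by Tbc1d22b (0.998) and Rala (0.994), and Ntrk3 by Camk2b (0.991), a kinase subunit of synapses, and Rnf216 (0.990). The nearest genes were Rmdn3 (0.980) and Fgd1 (0.978) for Ntf3, Pdilt (0.987) and Slc30a4 (0.973) for Bdnf, Psmd6 (0.986) and Cfp (0.965) for Ntrk2, and Slx9 (0.949) and Mpnd (0.941) for Gdnf.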

How the data were processed

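Agilent 1-colour rat arrays (Cy3) held total RNA of 8 hippocampi. The deposited files give a spot intensity that the authors extracted with Agilent Feature Extraction 9.5, per the submitters' processing notes, background-subtracted and detrended per the file headers and not scaled between arrays. Signals were set on a log2 scale against the 75th percentile of the 43379 spots per array that are no controls. Spots of a probe were averaged, leaving out those with an outlier mark (55 to 122 per array). Probes well above background on at least 4 of 8 arrays, with at least 3 values per group, were tested with limma 3.58.1 (R 4.3.3) by lmFit and eBayes (two-sided). P-values were adjusted by Benjamini-Hochberg across 31612 probes, at a threshold of 0.05. The procedure was tested on simulated data with independent noise, which held no slide effect and no outlying array, so that test does not cover these features of the arrays. Probe ratios were compared by an exact permutation test with the 35 distinct splits of 8 arrays.

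RefSeq accessions were named through a GRCr8 table, which matched 15184 probes (37%). The array grid names an older build, so no probe coordinates are given. All probes of the 8 genes were taken, and all windows found, which covered 5 of the genes. Other genes are named if the brightest tested probe of a listed gene had an unadjusted p under 0.05, up to 4 per direction and list, otherwise the 1 with the largest difference, and the 2 most like each member; partners (Ntf4, Igf2, Igfbp2, Igf1r, Gfra1, Ret, Pcsk1, Pcsk7) were added after their values were seen. The lists leave out an item that is not reported here. Members and lists were chosen with earlier results of these data known. Alternatives were quantile scaling, scaling to probes detected on every array, other filters and marked spots kept. Further ones were trended robust variance, a replicate block, leaving out each array, and normexp (offset 50) on the median spot and background signals. The median signals were chosen after the columns were seen, because these held no mean signal.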

Additional observations from a re-analysis of the deposited data

Results flagged for a closer look

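In 3 of 52 groups of 4 arrays, over the 13 member probes and the listed genes named by rule, 1 array lay far from the other 3 (gap over range above Dixon's 95% critical value); chance gives about 1 in 20. CCH replicate 2 read 1.42 for Igf1 (A_44_P366723) against 1.13 to 1.14 on the other CCH arrays. Control replicate 2 read -2.65 for Artn against -2.75 on each of the others, a gap of small size. Control replicate 1 read 4.16 for Fgfr2 (A_43_P10225) against 3.90 to 3.94.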

How the results depend on the processing

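The 12 member probes gave 191 differences under 16 alternatives. In 173 the direction was kept, 18 were reversed, and 0 were called by limma (1 or 2 probes had an unadjusted p under 0.05 under each alternative). The differences of 5 probes, both of Bdnf, Ntf3, the tested Gdnf probe and the dim Igf1 probe, kept their sign throughout. Igf1 A_44_P126021, at 0.01, was -0.04 with normexp, -0.01 with quantile scaling and 0.00 (below 0 before rounding) with scaling to probes detected on every array. With normexp Ngfr was -0.08 and Erbb3 -0.03. Leaving out 1 array gave -0.19 to -0.04 and 0.14 to 0.29 for Bdnf A_44_P219026 and A_44_P437896, -0.34 to -0.17 for Gdnf, -0.42 to -0.23 for the dim Igf1 probe, -0.10 to 0.13 for Vgf, -0.18 to 0.14 and -0.14 to 0.20 for Igf1 A_44_P366723 and A_44_P126021, -0.23 to 0.08 and -0.18 to 0.27 for Ntrk2 A_42_P538400 and A_44_P161121, -0.03 to 0.10 for Ntrk3, -0.18 to 0.28 for Ngfr and -0.25 to 0.49 for the Ntrk2 probe ratio.

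Of all probes on the array, 55 were called, against 246 with normexp, 29 with no detection filter, 209 with detection on all 8 arrays, 220 with trended robust variance, and 0 to 708 without 1 array. The 708 were without CCH replicate 1, and leaving out any other array gave 0 or 1 call by limma, with 3675 to 4655 probes at an unadjusted p under 0.05. Pathway list calls rose from 0 to 1 with normexp (Zdhhc17), and leaving out 1 array gave 0 to 3, with 3 without CCH replicate 1 (Zdhhc17, Ptpn11 and Pcsk7, a proprotein convertase). Normexp moved the median of all differences from 0.03 to -0.07. The causes were not tested. The exact p of the Bdnf probe ratio lay between 0.0286 and 0.0571.

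Same-numbered arrays share a slide position, and the correlations of their deviations were 0.15, 0.08, -0.01 and 0.25, which is not every pair above 0.1, so the numbers were not taken to pair the rats. With the replicate block limma called 0 probes (4963 at an unadjusted p under 0.05), and Ntf3 had an adjusted p of 0.176. A slide block was not run, since slide equals diet, nor normexp on the mean signal. Signal over background limits the dim probes of Gdnf and Igf1.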
